A study of Mus musculus with 15 samples.

Results

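Translation factors and aminoacyl-tRNA synthetases are the proteins that start and elongate polypeptide chains on the ribosome and that load tRNAs with amino acids. Members were the genes whose symbol begins with Eif1 to Eif6, Eef1 or Eef2, or is that of a cytosolic or mitochondrial aminoacyl-tRNA synthetase, and 99 of the 9666 listed genes met this rule. The rule used names and no measured value. All 99 also passed the filter on low values, which asks for a level of 1 RPKM or more in 4 or more of the 15 libraries. RPKM is reads per kilobase of gene per 1000000 reads. RNA came from ventricular cardiomyocytes, the contractile cells of the heart's pumping chambers, of wild-type C57BL/6 mice with no treatment named in the labels. The 4 P1 libraries were from postnatal day 1, the 4 P3 libraries from postnatal day 3, and the 7 adult libraries from mice of 8 to 12 weeks. The series compares neonatal cardiomyocytes, which still divide for a few days, with adult ones, and its title names N-cadherin and beta-catenin. The labels do not say whether each library came from its own animal, so the spread between libraries may be technical.

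Initiation factors of the eIF1, eIF2, eIF3, eIF4 and eIF5 groups bring the initiator tRNA and the mRNA to the small ribosomal subunit, and eEF1 and eEF2 then deliver tRNAs and move the ribosome along. Phosphorylation of eIF2 by dedicated kinases lowers initiation in stressed cells, and the eIF4E-binding proteins hold back the cap-binding factor until mTOR signalling releases it. Mammals use separate genes for most cytosolic and mitochondrial synthetases, and the mitochondrial enzymes serve the few respiratory-chain proteins encoded in mitochondrial DNA. In mouse heart and skeletal muscle, the elongation factor eEF1A is known to pass after birth from the Eef1a1 gene to the Eef1a2 gene.

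The estimated RPKM denominator, in units of 1000000 reads, ran from 10.5 to 11.3 in P1, from 9.5 to 13.6 in P3 and from 6.3 to 17.2 in adult libraries. All 12 cardiomyocyte markers were listed, and their summed level was 4511 to 9936 RPKM at P1, 709.6 to 6129 RPKM at P3 and 16383 to 30678 RPKM in adult. P3 replicate 1 held the highest sum of the P3 libraries, and P1 replicate 1 the lowest sum at P1. The 10 listed of 12 endothelial markers summed to 214 to 488 RPKM at P1, 719 to 1687 RPKM at P3 and 2.91 to 219 RPKM in adult, and the 4 listed of 10 fibroblast markers to 158 to 1331, 367 to 791 and 0.917 to 68.5 RPKM. Mural markers, with 3 of 6 listed, summed to 109.9 to 503, 407 to 711 and 19.4 to 98.3 RPKM, and none of the 8 immune or 6 erythroid markers was in the table. These sums move with age in every comparison with adult, and they also differ between the neonatal days. The median cardiomyocyte sum was 8989 RPKM at P1 and 1105 RPKM at P3, and the median endothelial sum 352 and 1068 RPKM. The part of these sums in the results was not tested. In such bulk RNA a smaller share of a cell type and less RNA per cell cannot be told apart.

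Most translation genes were lower in adult cardiomyocytes, and so were most other genes. Against P1, 74 of 99 members were called lower in adult and 1 higher, where a call needs an adjusted p (limma, Benjamini-Hochberg) under 0.05 and a change of 1 or more on the scale of log2(RPKM + 0.5). Over all 9389 tested genes 62.7% were called lower and 4.32% higher. Against P3, 71 members were lower and 4 higher in adult, with 62.7% and 9.16% over all tested genes. The median difference of the members was -1.69 against P1 and -1.70 against P3, and that of all tested genes -1.36 and -1.48. These shares of members lie near those of all genes, so the direction of the whole set is that of the transcriptome. After quantile normalization, which sets the median gene to -0.09 and -0.17, members split into 12 higher and 29 lower against P1 and 17 higher and 32 lower against P3. Of all 9389 tested genes, 1683 were then higher and 1669 lower against P1, and 2165 and 2376 against P3. Median-of-ratios scaling, which sets each library by the median ratio of its genes to their mean over libraries, gave 12 higher and 17 lower members against P1 and 18 higher and 23 lower against P3. For all tested genes it gave 1853 higher and 1552 lower against P1, and 2335 and 2133 against P3. Counts by role under these scalings, given below, are to be set beside these counts of all genes. Directions and calls below refer to the deposited RPKM. Of the members called lower, 14 of 74 against P1 and 18 of 71 against P3 turned to a positive value under another scaling, and they are named with their role.

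**Figure D1:**
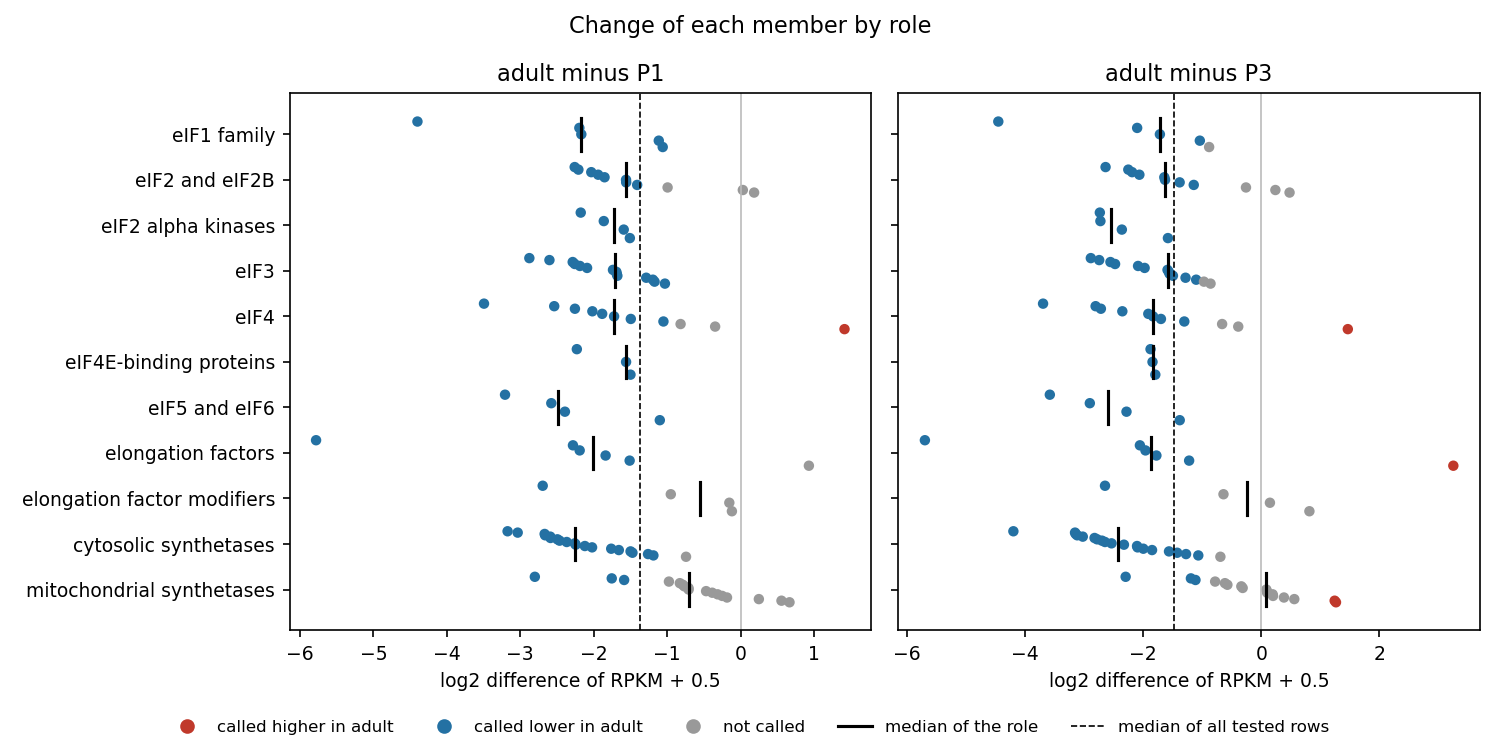
Each point is a member, placed by its log2 difference of RPKM + 0.5 (horizontal axis) for adult minus P1 on the left and adult minus P3 on the right, in the row of its role. Solid bars mark the median of a role and dashed lines the median of all tested genes. Cytosolic synthetases have medians of -2.25 and -2.43, left of the dashed lines at -1.36 and -1.48, and mitochondrial synthetases medians of -0.71 and 0.08, right of them.

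By role the counts ran from nearly all to few. Cytosolic synthetases were called lower in adult in 19 of 20 cases against each day, with medians of -2.25 and -2.43. Mitochondrial synthetases were called lower in 3 of 17 cases against each day, with medians of -0.71 and 0.08. Over all tested genes 62.7% were called lower against each day. A count of 16 members was called lower against both days under all 5 scalings used: Cars, Farsa, Gars, Rars, Tars, Yars, Eef1a1, Eef1e1, Eif1a, Eif2ak4, Eif3b, Eif3d, Eif4a1, Eif4a3, Eif5 and Eif6. Over all tested genes 14.3% met the same rule, so the share of members lies near that of all genes. Any other member called lower against both days lost a call under 1 or more of the scalings. Eif4e3 alone was called higher against both days under all of them, as were 4.07% of all tested genes.

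Cytosolic synthetases charge tRNAs for translation in the cytoplasm. Cars, the cysteinyl enzyme, had 31.4, 14.3, 21.5 and 14.97 RPKM at P1, 33.2, 51.1, 51.3 and 30.2 RPKM at P3, and 1.14 to 2.37 RPKM with a median of 2.03 in adult. No adult library reached a neonatal one. It changed by -3.17 ± 0.24 (SE, limma adjusted p = 1.6e-09) against P1 and by -4.20 ± 0.24 (limma adjusted p = 4.7e-11) against P3. Gars, the glycyl enzyme, stood at 67.4, 108.4, 101.1 and 70.7 RPKM at P1, at 122, 97.2, 84.0 and 70.6 RPKM at P3, and at 5.51 to 17.1 RPKM with a median of 10.7 in adult. Its groups did not overlap with adult either, and it changed by -3.03 ± 0.26 (limma adjusted p = 7.7e-09) and -3.14 ± 0.26 (limma adjusted p = 2.9e-09). Nars, the asparaginyl enzyme and the most abundant cytosolic one on average, had 114.9, 76.2, 87.3 and 68.2 RPKM at P1, 113, 162, 143 and 86.9 RPKM at P3, and 11.7 to 18.5 RPKM with a median of 14.7 in adult. Here too each adult library was below each neonatal one, and the changes were -2.49 ± 0.21 (limma adjusted p = 4.5e-09) and -3.02 ± 0.21 (limma adjusted p = 2.7e-10).

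Other deep falls against P1 and P3 were those of Farsa, the catalytic subunit for phenylalanine (-2.67 and -2.78), Rars for arginine (-2.66 and -3.12), Tars for threonine (-2.59 and -3.15) and Yars for tyrosine (-2.59 and -2.82). Farsb, the partner subunit of Farsa, changed less, by -1.26 and -1.07, and its adult libraries held 8.98 to 11.2 RPKM against 20.1 to 32.02 RPKM at P1. Eprs, a fused enzyme that charges both glutamate and proline, changed by -1.66 and -1.85. Dars, the aspartyl enzyme, was the exception that was not called: it had 24.7 to 27.1 RPKM at P1, 21.8 to 33.1 RPKM at P3 and 14.1 to 17.0 RPKM in adult. Its adult libraries lay below all neonatal ones, but its difference of -0.74 against P1 and -0.69 against P3 was under the threshold of 1, and after median-of-ratios scaling it was 0.77 and 0.90. Of the 19 called, Farsb, Kars and Qars turned to a positive change under another scaling against P1, and Farsb, Kars, Lars and Qars against P3. The cytosolic median stayed below 0 under each of the 5 scalings, between -2.25 and -0.76 against P1 and between -2.43 and -0.92 against P3. The calls were fewer: of 20 genes, quantile normalization called 9 lower against P1 and 10 against P3, and median-of-ratios scaling 6 and 9. Of all 9389 tested genes, quantile normalization called 1669 and 2376 lower, and median-of-ratios scaling 1552 and 2133. Eef1e1, a factor that sits in the multi-synthetase complex, had 35.2, 35.4, 29.4 and 32.3 RPKM at P1, 38.9, 34.0, 33.1 and 23.7 RPKM at P3 and 3.44 to 7.81 RPKM in adult. It changed by -2.69 ± 0.21 and -2.65 ± 0.21 (limma adjusted p = 1.9e-09 and 1.2e-09) with no overlap.

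**Figure D2:**
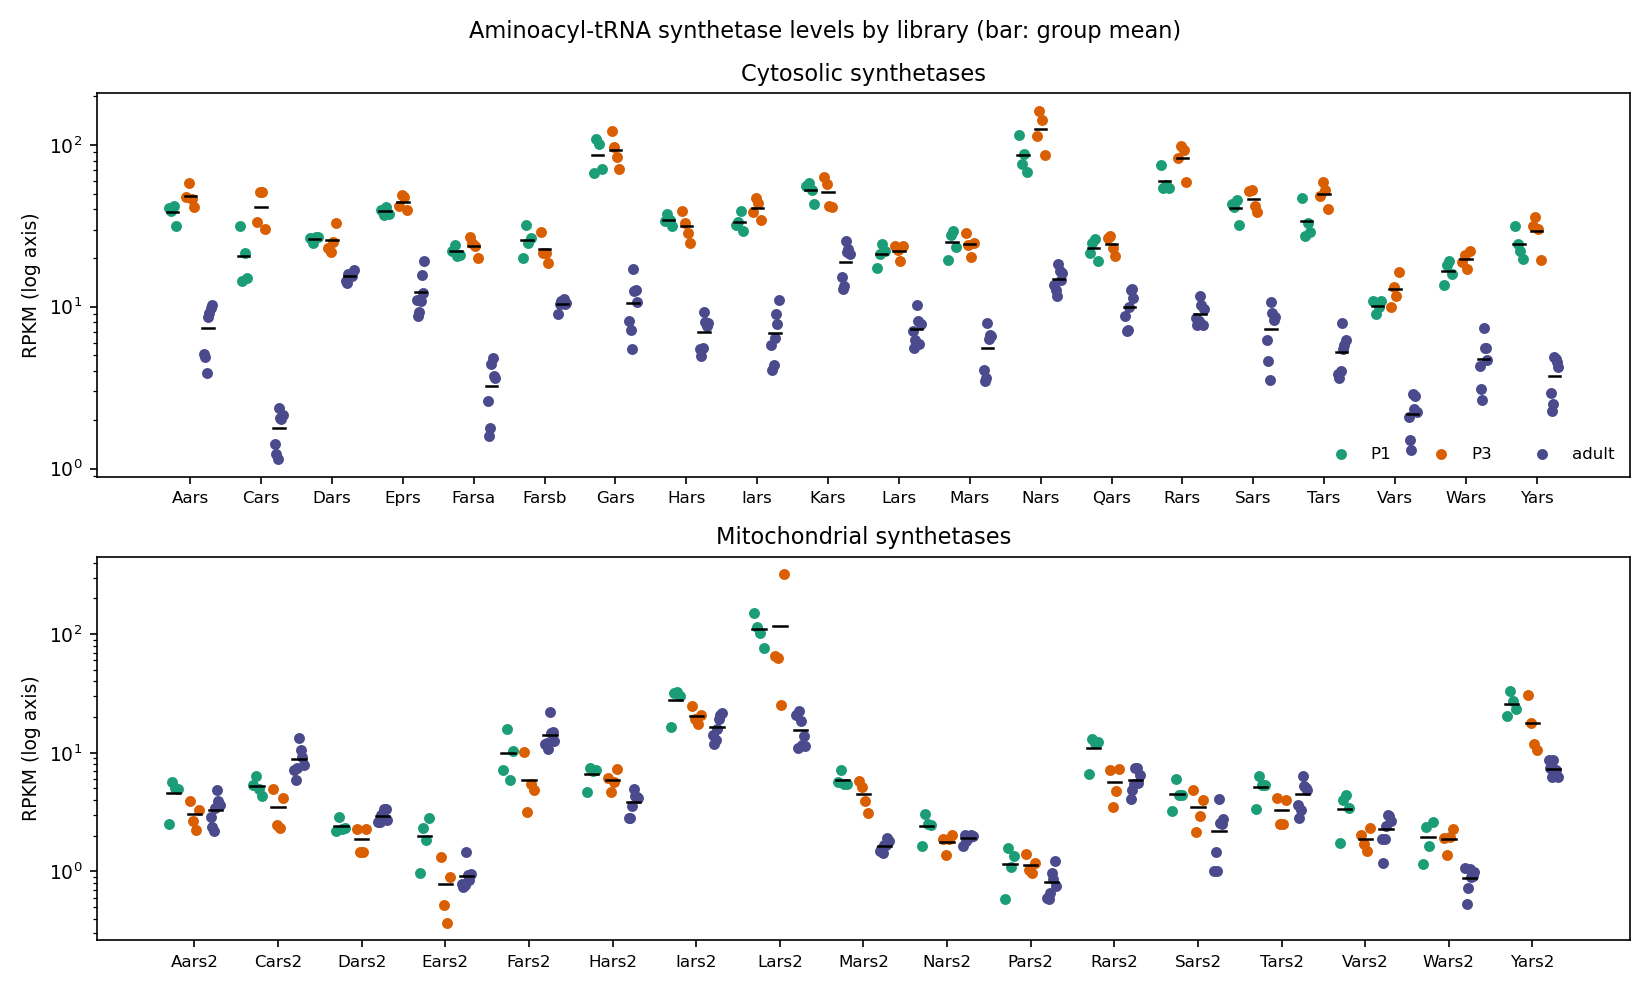
Every point is a library, with RPKM on a log axis, for the 20 cytosolic synthetases above and the 17 mitochondrial ones below, each in the order P1, P3, adult, and bars mark group means. Adult points of the cytosolic genes lie below the neonatal points, as for Cars at 1.14 to 2.37 RPKM, while those of Cars2 and Fars2 lie above the P3 points and overlap with the P1 points.

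Cytosolic synthetase genes of mammals are known targets of ATF4, a factor that binds TGATGNAA, the amino acid response element. RefSeq promoter windows of GRCm38.p6, from 250 bases before to 50 bases after each annotated start, were available for 75 members in 91 windows. On either strand TGATGNAA was found in 5 of 12 windows of cytosolic synthetases (41.7%: Aars, Gars, Iars, Tars and Yars), in 0 of 15 windows of mitochondrial synthetases and in 3.97% of all 32851 windows. All 5 genes with it were called lower in adult against both days, as were most cytosolic synthetases without it. The Iars and Yars matches lie after the start. The 3 genes with a match before the start are shown with the match in capitals, read 5′ to 3′ on the gene's strand, where it appears as the reverse complement of TGATGNAA, at chr6:55037945-55038000 (plus strand), chr8:111033704-111033763 (plus strand) and chr15:11399659-11399699 (minus strand).
Gars: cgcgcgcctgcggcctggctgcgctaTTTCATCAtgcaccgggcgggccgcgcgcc
Aars: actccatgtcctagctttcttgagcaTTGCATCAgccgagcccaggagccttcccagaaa
Tars: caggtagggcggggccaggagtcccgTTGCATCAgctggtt
A match is a description of these letters and not evidence of a bound site.

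CATGCGC, the core of the site of NRF1, a regulator of nuclear genes for mitochondria, was in 3 of 15 windows of mitochondrial synthetases (20%), in 0 of 12 of cytosolic synthetases, in 13.2% of member windows and in 3.91% of all windows. The share was also 20% for eIF2 and eIF2B and for eIF3, 25% for eIF5 and eIF6 and 50% for elongation factors, in 4 to 10 windows each. It was 7.69% for eIF4 and 0 for the other roles. The mitochondrial matches were those of Rars2, Vars2 and Wars2, and the first and last are shown to set them beside the cytosolic sequences, at chr4:34614881-34614939 (plus strand) and chr3:99141000-99141058 (plus strand, reverse complement).
Rars2: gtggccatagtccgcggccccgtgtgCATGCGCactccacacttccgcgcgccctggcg
Wars2: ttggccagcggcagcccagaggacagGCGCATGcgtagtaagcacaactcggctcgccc
CACGTG, the E-box bound by MYC and related factors, was in 19.8% of member windows and in 7.15% of all windows, AAGGTCA, bound by estrogen-related receptors, in 0 of 91 member windows and 4.72% of all. An annotated start in C followed by 4 pyrimidines, as in terminal oligopyrimidine mRNAs, was found in 3.3% of member windows and in 2.51% of all windows.

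Of the 17 mitochondrial synthetases, 2 were called higher in adult against P3, a share near the 9.16% of all tested genes. Against both days 3 were called lower, where 62.7% of all tested genes were called lower against each day. Fars2, the mitochondrial phenylalanyl enzyme, had 7.23, 15.96, 5.92 and 10.4 RPKM at P1, 10.2, 3.18, 5.43 and 4.89 RPKM at P3, and 10.7 to 22.1 RPKM with a median of 12.5 in adult. The adult libraries lay above all P3 libraries and overlapped with P1. Fars2 rose by 1.26 ± 0.28 against P3 (limma adjusted p = 0.00043), and its difference of 0.56 ± 0.28 against P1 was not called. Cars2, the cysteinyl enzyme, had 5.35, 6.36, 4.91 and 4.32 RPKM at P1, 4.93, 2.46, 2.34 and 4.17 RPKM at P3 and 5.90 to 13.3 RPKM with a median of 7.91 in adult. It too was above all P3 libraries in adult, by 1.24 ± 0.23 (limma adjusted p = 5.3e-05), and overlapped with P1, with a difference of 0.67 ± 0.23 that was not called.

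Lars2, Mars2 and Yars2, for leucine, methionine and tyrosine, were the 3 called lower. Lars2 had 149.7, 115.5, 102.3 and 76.7 RPKM at P1, 64.8, 62.9, 25.4 and 318.7 RPKM at P3 and 10.99 to 22.5 RPKM in adult. Its P3 libraries spread more than those of any other synthetase, and all stayed above the adult ones. It changed by -2.80 ± 0.45 (limma adjusted p = 1.2e-05) and -2.30 ± 0.45 (limma adjusted p = 0.00010), and the call against P3 was lost after quantile normalization (-1.24, adjusted p = 0.057) and median-of-ratios scaling (-0.69, adjusted p = 0.19). Mars2 changed by -1.59 and -1.19 and Yars2 by -1.75 and -1.12, and both turned to a positive change against P3 under another scaling. Under quantile normalization 6 mitochondrial synthetases were called higher against P1 and 10 against P3, where 1683 and 2165 of all 9389 tested genes were. The medians of all mitochondrial synthetases were then 0.73 and 1.07, so the direction of this role depends on the scaling. Several have few reads: among the lowest levels were those of Ears2, at 0.369 to 1.33 RPKM in P3 libraries, and Pars2, at 0.583 to 1.21 RPKM in adult ones. Wars2 held 0.535 to 1.07 RPKM in adult libraries. The fewest reads in a library were 18 for Pars2, 19 for Sars2, 26 for Wars2 and 29 for Ears2.

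A ratio of genes within a library does not depend on the scaling between libraries. For the 15 amino acids with a listed pair, the log2 ratio of the mitochondrial to the cytosolic enzyme was higher in adult than at P1 for 13 and lower for 1, Lars2/Lars, and it was higher than at P3 for 14. A two-sided exact permutation test over libraries was used, adjusted over the 78 tests made on 26 gene pairs. Its smallest p is 0.0061 for 7 against 4 libraries, and that value gives an adjusted p of 0.012. The groups did not overlap for 12 of the 15 pairs against P1 and 13 against P3. Over all pairs of tested genes, in either direction, the ratio did not overlap in 48.4% against P1 and in 56.3% against P3. The share of all gene pairs that would pass the permutation test was not computed. The median difference of the 15 pairs was 1.62 against P1 and 2.30 against P3. In P3 minus P1 all 15 differences were negative, from -1.70 to -0.003 with a median of -0.88, and Cars2/Cars alone passed.

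The shift was widest for cysteine. Cars2/Cars ran from -2.55 to -1.17 at P1, from -4.46 to -2.75 at P3 and from 1.89 to 2.70 in adult on the log2 scale. Its mean was thus 4.23 higher in adult than at P1 and 5.93 higher than at P3 (exact permutation p = 0.0061 for each, adjusted p = 0.012). The mitochondrial transcript exceeded the cytosolic one in all adult libraries and in none of the neonatal ones. Fars2/Farsa followed, with 3.46 and 4.34 (exact permutation adjusted p = 0.012 for each) and an order reversed in the same way. The cytosolic phenylalanyl enzyme also holds the Farsb subunit, and with Farsb in place of Farsa, a choice made after seeing the data, the differences were 1.88 and 2.45 (exact permutation adjusted p = 0.012 for each). Fars2 exceeded Farsb in 6 of 7 adult libraries and in none of the neonatal ones, so the rank of this pair rests on the subunit chosen. Tars2/Tars differed by 2.50 and 3.71, and Rars2/Rars by 1.85 and 3.28, without a change of order. Mars2/Mars did not pass against P1, with a difference of 0.37 (exact permutation p = 0.13, adjusted p = 0.17), and passed against P3 with 0.78 (exact permutation p = 0.012, adjusted p = 0.022). Lars2/Lars was -1.28 against P1 (exact permutation p = 0.012, adjusted p = 0.022) and -0.70 against P3 (exact permutation p = 0.33, adjusted p = 0.39), with overlap in both. Hars and Hars2 overlap by 198 bases on opposite strands, so their reads may be mixed.

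**Figure D3:**
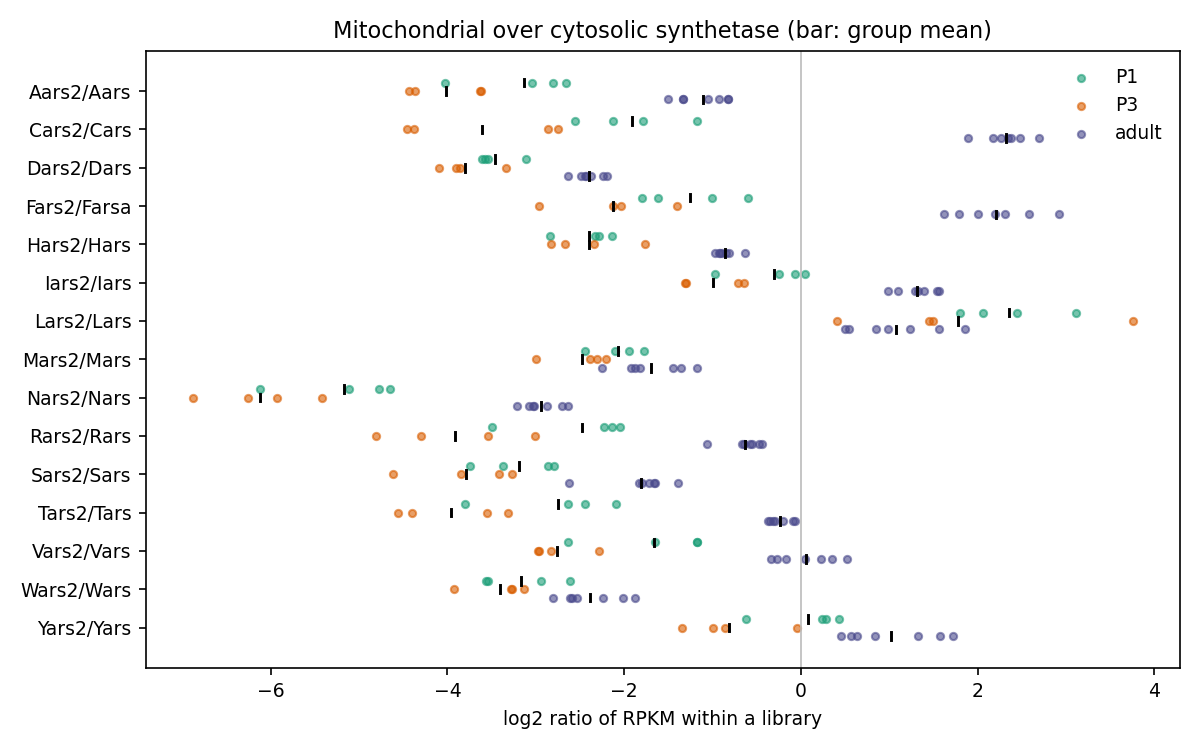
Points are libraries, placed by the log2 ratio of mitochondrial to cytosolic synthetase RPKM (horizontal axis) for the 15 amino acids with a pair, and bars mark group means. Adult ratios lie to the right of the neonatal ones for most pairs, from 1.89 to 2.70 for Cars2/Cars, and Lars2/Lars is the pair with the opposite order of means.

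Among elongation factors the eEF1A genes moved apart. Eef1a1, the form of most dividing cells, had 3699, 3976, 3456 and 3199 RPKM at P1, 4159.5, 3531, 3164 and 2778 RPKM at P3, and 26.2 to 271 RPKM with a median of 61.3 in adult. Its groups were far apart, with a change of -5.78 ± 0.47 (limma adjusted p = 3.4e-09) against P1 and -5.70 ± 0.47 (limma adjusted p = 2.3e-09) against P3, the deepest fall of any member. Eef1a1 lies on chromosome 9, 78478449 to 78489151, and Eef1a2 on chromosome 2, 181147653 to 181157014, both on the minus strand as protein-coding genes of GENCODE for mm10. Eef1a1 has many processed pseudogenes, and how reads shared with them were counted is not given in the sources used here. Eef1a2, the form of adult muscle and neurons, had 46.0, 179, 142 and 111 RPKM at P1, 89.6, 21.9, 10.3 and 9.25 RPKM at P3, and 121 to 316 RPKM with a median of 227 in adult. Adult libraries overlapped with those of P1 and lay above all of P3. Eef1a2 rose by 3.25 ± 0.50 against P3 (limma adjusted p = 7.1e-06). Against P1 its difference of 0.93 ± 0.50 was not called (limma adjusted p = 0.093), while each of the other 4 scalings called it higher, at 1.63 to 2.47.

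Of the summed eEF1A level, Eef1a2 made up 1.23% to 4.31% at P1, 0.324% to 2.11% at P3 and 49.7% to 84.0% in adult. The sum itself was 3310 to 4155 RPKM at P1, 2788 to 4249 RPKM at P3 and 150.4 to 538.9 RPKM in adult, so Eef1a2 exceeded Eef1a1 in 6 of 7 adult libraries at a far lower total. Adult replicate 4 had the highest Eef1a1 at 271 RPKM, beside 268 RPKM of Eef1a2, and also the highest endothelial and fibroblast sums of the adult libraries, at 219 and 68.5 RPKM. The log2 ratio of Eef1a2 to Eef1a1 was 6.73 higher in adult than at P1 and 9.003 higher than at P3 (exact permutation p = 0.0061 for each, adjusted p = 0.012), with no overlap. Among neonatal libraries Eef1a2 followed the cardiomyocyte markers: P1 replicate 1 had the lowest marker sum at P1, 4511 RPKM, with 46.0 RPKM of Eef1a2, and P3 replicate 1 the highest at P3, 6129 RPKM, with 89.6 RPKM. The other P3 libraries held 709.6 to 1432 RPKM of markers and 9.25 to 21.9 RPKM of Eef1a2. What the share of cardiomyocytes adds to the Eef1a2 differences was not tested.

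**Figure D4:**
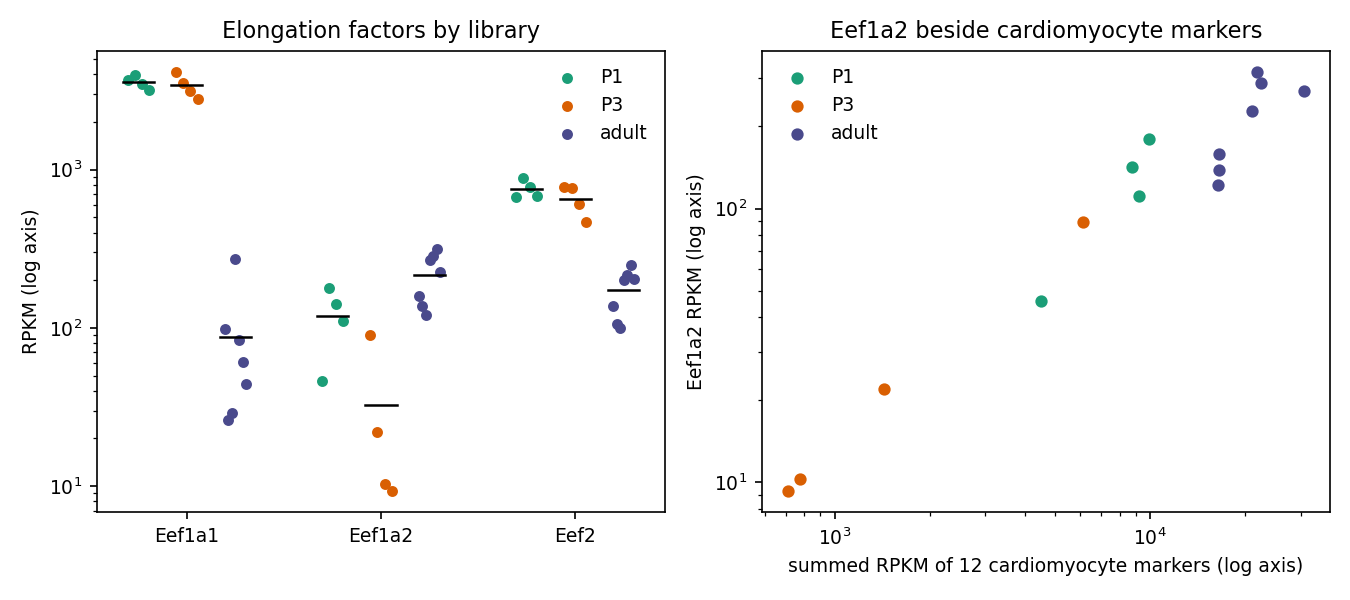
Left, RPKM of Eef1a1, Eef1a2 and Eef2 in each library on a log axis, in the order P1, P3, adult, with bars at group means. Right, Eef1a2 RPKM against the summed RPKM of 12 cardiomyocyte markers, both on log axes, where P3 replicate 1, with 6129 RPKM of markers and 89.6 RPKM of Eef1a2, lies apart from the other P3 libraries.

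Eef2, the translocase, had 672, 892, 776 and 686.5 RPKM at P1, 778, 769, 608.5 and 465 RPKM at P3 and 100.4 to 249.5 RPKM with a median of 202 in adult. It changed by -2.19 ± 0.29 (limma adjusted p = 1.2e-06) and -1.96 ± 0.29 (limma adjusted p = 4.1e-06) with no overlap. Eef2k, the kinase that inhibits eEF2, did not follow. It had 2.08, 2.68, 2.11 and 2.33 RPKM at P1, 2.21, 1.90, 1.36 and 1.69 RPKM at P3 and 0.833 to 5.03 RPKM in adult, with overlap and differences of -0.15 and 0.15 that were not called. The log2 ratio of Eef2k to Eef2 was 1.95 higher in adult than at P1 and 2.10 higher than at P3 (exact permutation adjusted p = 0.012 for each). The subunits of the exchange factor for eEF1A, Eef1b2, Eef1d and Eef1g, were called lower against both days, by -2.28 to -1.22, and Eef1d turned to a positive change under median-of-ratios scaling. Of the factors that modify elongation factors or bind them, Eef1e1 alone was called. The methyltransferase gene Eef1akmt1 ranged from 6.76 to 25.7 RPKM in adult, and Eef2kmt from 0.889 to 3.44 RPKM.

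In the eIF4 group the helicases diverged. Eif4a1, the helicase subunit of the cap-binding complex, had 563, 425.5, 373 and 357.5 RPKM at P1, 561, 529.5, 518 and 364 RPKM at P3 and 29.3 to 52.5 RPKM with a median of 38.1 in adult. It changed by -3.49 ± 0.22 (limma adjusted p = 2.6e-10) and -3.70 ± 0.22 (limma adjusted p = 6.2e-11), with no overlap. Eif4a2, its paralog, had 79.0, 54.0, 77.2 and 76.6 RPKM at P1, 76.2, 68.7, 73.5 and 74.2 RPKM at P3 and 49.1 to 68.0 RPKM with a median of 54.4 in adult. Its differences of -0.35 ± 0.18 and -0.39 ± 0.18 were not called, and they were positive under each of the other 4 scalings. Eif4a2 was thus above Eif4a1 in all adult libraries and below it in all neonatal ones. The log2 ratio of Eif4a2 to Eif4a1 was -2.98 to -2.22 at P1, -2.95 to -2.29 at P3 and 0.10 to 0.89 in adult, a difference for adult minus P1 and minus P3 of 3.16 and 3.32 (exact permutation adjusted p = 0.012 for each). Eif4a3, a related helicase of the exon junction complex, fell to 6.598 to 18.9 RPKM in adult, against 48.8 to 80.5 RPKM at P1.

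**Figure D5:**
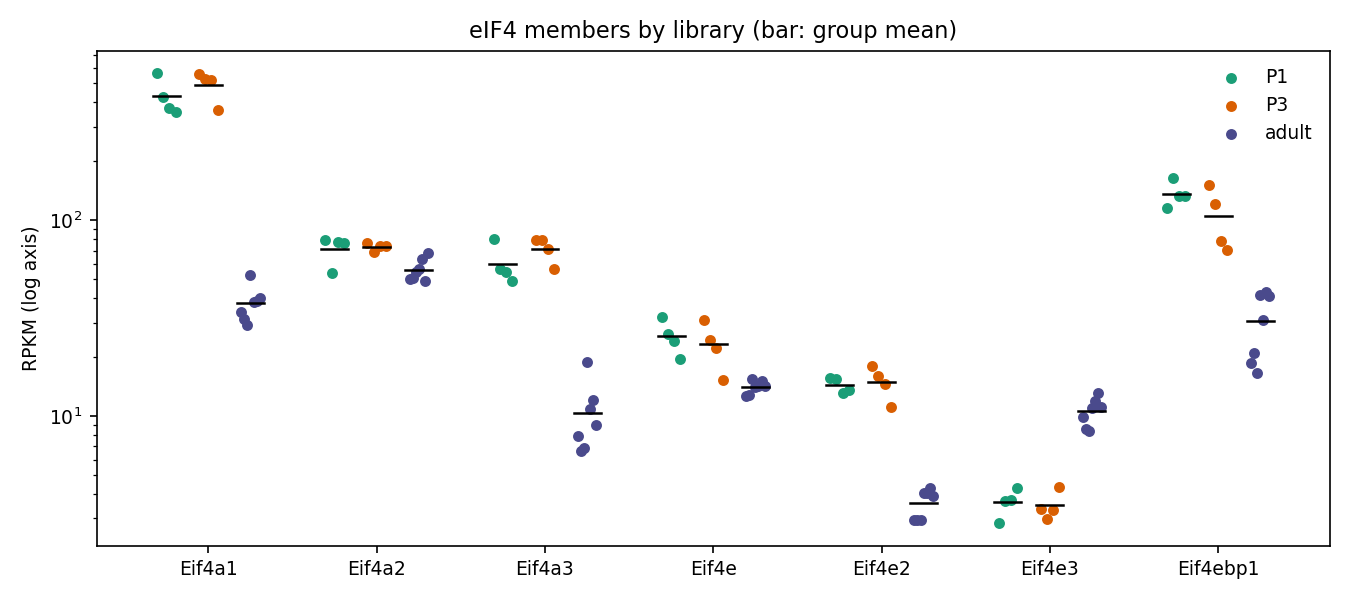
Points are libraries with RPKM on a log axis for the eIF4A and eIF4E genes and Eif4ebp1, in the order P1, P3, adult, and bars mark group means. Eif4a1 lies at 29.3 to 52.5 RPKM in adult, within reach of Eif4a2 at 49.1 to 68.0 RPKM, and Eif4e3 is higher in adult than in both neonatal groups.

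The cap-binding proteins also separated. Eif4e3, an eIF4E-like protein that binds the cap in an atypical way, had 2.84, 3.70, 3.72 and 4.31 RPKM at P1, 3.37, 2.99, 3.31 and 4.35 RPKM at P3 and 8.41 to 13.1 RPKM with a median of 10.97 in adult. All adult libraries were above all neonatal ones, by 1.41 ± 0.17 (limma adjusted p = 4.4e-07) and 1.46 ± 0.17 (limma adjusted p = 2.3e-07). The annotated gene Gm20696 covers Eif4e3 (chromosome 6, 99625135 to 99666771, minus strand) on the same strand, so reads of either may be counted for it. Eif4e, the main cap-binding factor, had 32.3, 26.4, 24.04 and 19.6 RPKM at P1, 31.0, 24.4, 22.4 and 15.4 RPKM at P3 and 12.7 to 15.6 RPKM in adult, and its differences of -0.82 and -0.66 were not called. Eif4e2, a cap-binding repressor, had 15.7, 15.5, 13.1 and 13.7 RPKM at P1, 18.1, 16.1, 14.7 and 11.1 RPKM at P3 and 2.94 to 4.32 RPKM in adult. It changed by -1.88 ± 0.17 and -1.91 ± 0.17 (limma adjusted p = 1.4e-08 and 7.1e-09) with no overlap. Relative to Eif4e on the log2 scale, Eif4e3 was 2.37 and 2.27 higher and Eif4e2 differed by -1.19 and -1.38 (exact permutation adjusted p = 0.012 for each).

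Of the scaffold genes, Eif4g1 had 94.8, 113, 114 and 94.2 RPKM at P1, 122, 133, 120.4 and 104.5 RPKM at P3 and 23.6 to 53.2 RPKM in adult. Eif4g2, which lacks the eIF4E-binding part, had 134, 125, 129 and 109.4 RPKM at P1, 152.5, 158, 153 and 129.9 RPKM at P3 and 48.1 to 74.3 RPKM in adult. Eif4g3 had 15.3, 10.3, 12.4 and 13.8 RPKM at P1, 14.0, 21.5, 26.4 and 24.9 RPKM at P3 and 1.56 to 3.95 RPKM in adult. All 3 were called lower without overlap, with changes of -1.49 and -1.70 for Eif4g1, -1.05 and -1.30 for Eif4g2 and -2.02 and -2.72 for Eif4g3. After median-of-ratios scaling Eif4g1 turned to 0.04 against P1 and Eif4g2 to 0.49 and 0.32. Within libraries Eif4g3 fell relative to Eif4g1, by -0.71 and -1.22 on the log2 scale (exact permutation adjusted p = 0.022 and 0.012), and Eif4g2 rose relative to it, by 0.45 and 0.40 (exact permutation adjusted p = 0.032 and 0.022). The ratio of Eif4g2 to Eif4g1 overlapped with adult on both days, and that of Eif4g3 to Eif4g1 at P1 but not at P3.

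The 3 genes of the eIF4E-binding proteins were called lower against each day on deposited values, where 62.7% of all tested genes were. Eif4ebp1 had 115, 164, 133 and 133 RPKM at P1, 151, 120.4, 78.0 and 70.3 RPKM at P3 and 16.7 to 42.9 RPKM with a median of 31.0 in adult. It changed by -2.23 ± 0.29 (limma adjusted p = 1.1e-06) and -1.80 ± 0.29 (limma adjusted p = 1.4e-05), with no overlap. Eif4ebp2 changed by -1.499 and -1.88 and Eif4enif1, the transporter of eIF4E, by -1.56 and -1.84. Median-of-ratios scaling called none of the 3 against either day, and quantile normalization called Eif4ebp1 alone, against P1. The ratio of Eif4ebp2 to Eif4ebp1 did not pass against either day, with log2 differences of 0.62 and -0.20 (exact permutation adjusted p = 0.15 and 0.65).

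In the eIF1 group Eif1a changed most. This gene encodes the factor that helps the small subunit scan, and it had 85.3, 62.3, 58.9 and 45.0 RPKM at P1, 81.9, 68.6, 76.0 and 38.4 RPKM at P3 and 2.26 to 3.03 RPKM with a median of 2.34 in adult. It changed by -4.40 ± 0.21 (limma adjusted p = 1.9e-11) and -4.45 ± 0.21 (limma adjusted p = 8.4e-12), second in depth to Eef1a1, with no overlap. Eif1ax, its paralog on the X chromosome, kept 19.8 to 30.1 RPKM in adult, against 96.7 to 127 RPKM at P1, a change of -2.17. The paralogs are alike, and their share of common reads is uncertain. Eif1, the factor that checks the start codon, had 417, 364, 274 and 296 RPKM at P1, 404, 346, 368 and 227 RPKM at P3 and 128 to 275 RPKM with a median of 149.6 in adult, so that adult overlapped with both days. Its changes of -1.06 and -1.04 were just past the threshold, and they turned to 0.48 and 0.59 after median-of-ratios scaling. Eif1b, a close relative of Eif1, had 28.8 to 41.5 RPKM at P1, 24.7 to 36.5 RPKM at P3 and 10.2 to 27.6 RPKM in adult. It was called lower against P1, by -1.11, and this turned to 0.40 under median-of-ratios scaling and 0.12 under quantile normalization. Its difference of -0.88 against P3 was not called.

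The eIF2 and eIF2B group was called lower in 8 of 11 cases (72.7%) against each day, near the 62.7% of all tested genes. The group includes Eif2a and Eif2d by name, which encode separate factors and not subunits of eIF2 or eIF2B. Median-of-ratios scaling and quantile normalization each called 0 of 11 lower and 2 higher against P1. Eif2s2, the beta subunit of eIF2 and the most abundant of the group on average, had 92.8, 72.0, 78.7 and 69.8 RPKM at P1, 106.3, 91.9, 91.9 and 62.9 RPKM at P3 and 14.1 to 24.6 RPKM in adult. It changed by -2.03 ± 0.20 and -2.19 ± 0.20 (limma adjusted p = 2.4e-08 and 5.9e-09) with no overlap. Eif2s1, the alpha subunit that stress kinases phosphorylate, changed by -2.26 and -2.25. The gamma subunit has copies on both sex chromosomes, and their values differ. Eif2s3x held 55.1 to 77.6 RPKM at P1, 52.1 to 68.4 RPKM at P3 and 11.2 to 17.2 RPKM in adult, while Eif2s3y held 7.82 to 28.1 RPKM at P1, 9.09 to 13.3 RPKM at P3 and 10.2 to 23.3 RPKM in adult. Eif2s3x changed by -2.21 and -2.07, and the differences of Eif2s3y, 0.18 and 0.48, were not called. The difference between the copies was not tested. The labels give no sex, so the makeup of each library cannot be set beside Eif2s3y. Eif2b4 and Eif2d were not called either, at -0.99 and -0.26 and at 0.03 and 0.24. Eif2a turned to a positive change under median-of-ratios scaling, and so did Eif2b5 against P3.

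All 4 eIF2 alpha kinases were called lower in adult against each day, where 62.7% of all tested genes were. Eif2ak4, the sensor of uncharged tRNA also called GCN2, had 3.79, 3.38, 3.77 and 3.74 RPKM at P1, 4.04, 6.48, 5.68 and 6.73 RPKM at P3 and 0.212 to 0.710 RPKM with a median of 0.352 in adult. It changed by -2.18 ± 0.18 (limma adjusted p = 3.5e-09) and -2.73 ± 0.18 (limma adjusted p = 1.4e-10), with no overlap. Eif2ak1, the heme-regulated kinase, had 15.9, 17.9, 20.3 and 15.7 RPKM at P1, 18.8, 18.1, 17.0 and 15.3 RPKM at P3 and 3.22 to 8.09 RPKM in adult, with changes of -1.59 and -1.58. Its log2 ratio to Eif2ak4 was 1.49 and 2.12 higher in adult (exact permutation adjusted p = 0.012 for each). The ratio is taken on RPKM without the added 0.5, so these differences are wider than the fitted changes of both genes imply. Eif2ak4 lay at 0.212 to 0.710 RPKM in adult and had as few as 7 reads in a library, so the size of these differences is uncertain. Eif2ak2, the kinase activated by double-stranded RNA, changed by -1.51 and -2.36, and its P3 libraries ran from 3.84 to 21.5 RPKM. Eif2ak3, the kinase of the endoplasmic reticulum, changed by -1.86 and -2.72. No kinase turned in direction under the other scalings, but calls were lost. Against P1, Eif2ak4 was the 1 kinase called lower by quantile normalization, with a median of the 4 at -0.54 in place of -1.73, and also by median-of-ratios scaling, with a median of -0.57. Against P3 these scalings called 2 and 3 of the 4.

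The eIF3 genes encode the large scaffold of the initiation complex. They were called lower in 14 of 14 cases against P1 and 12 of 14 against P3, where 62.7% of all tested genes were. The eIF3 medians of -1.71 and -1.58 stand beside -1.36 and -1.48 for all tested genes. The falls of the eIF3 genes were uneven. Eif3d and Eif3b changed by -2.88 and -2.89 and by -2.60 and -2.75. Eif3h, which had 123, 113, 95.5 and 103.6 RPKM at P1, 124, 105.6, 89.2 and 73.1 RPKM at P3 and 37.6 to 85.0 RPKM in adult, changed by -1.03 against P1. Its difference of -0.86 against P3 was not called, and its libraries overlapped with that day. Eif3m was the other gene not called against P3, at -0.97. After quantile normalization 5 of 14 were called lower against each day and after median-of-ratios scaling 2 of 14, where the median was -0.20 against P1 and 0.02 against P3. Eif3f, Eif3h, Eif3k and Eif3m turned to a positive change against P1 and Eif3e, Eif3f, Eif3i, Eif3j1, Eif3j2 and Eif3k among those called against P3. Eif3j1 and Eif3j2 are near-identical copies whose values stood in nearly 1 ratio in every library (SD of the log2 ratio 0.017), so they are not separate measurements.

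The last initiation factors were called lower in 4 of 4 cases against each day, where 62.7% of all tested genes were. Of the 4, 2 were called lower under median-of-ratios scaling and 3 under quantile normalization. Eif6, which keeps the large ribosomal subunit from joining too early, had 60.7, 57.0, 51.3 and 50.02 RPKM at P1, 75.0, 84.7, 68.9 and 57.8 RPKM at P3 and 3.14 to 11.1 RPKM with a median of 5.65 in adult. It changed by -3.21 ± 0.24 (limma adjusted p = 1.4e-09) and -3.58 ± 0.24 (limma adjusted p = 1.9e-10), with no overlap. Eif5a, the hypusine-bearing factor, had 349.9, 338, 268 and 259 RPKM at P1, 375, 316, 264 and 194 RPKM at P3 and 43.8 to 86.9 RPKM in adult. It changed by -2.39 ± 0.24 and -2.28 ± 0.24 (limma adjusted p = 4.9e-08 and 6.4e-08), again without overlap. Eif5, the activator of eIF2 GTP hydrolysis, changed by -2.58 and -2.90, and Eif5b, which joins the subunits, by -1.10 and -1.38, with a turn to a positive change under quantile normalization and median-of-ratios scaling.

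Between the neonatal days little passed. In P3 relative to P1, 1 member was called higher and 1 lower, where 1.4% and 5.31% of all tested genes were. Cars rose by 1.03 ± 0.27 (limma adjusted p = 0.028), with 30.2 to 51.3 RPKM at P3 and 14.3 to 31.4 RPKM at P1. Eef1a2 fell by 2.32 ± 0.57 (limma adjusted p = 0.021), with 9.25 to 89.6 RPKM at P3 and 46.0 to 179 RPKM at P1. The days overlapped for each gene. Each of these calls was lost when P1 replicate 2, 3 or 4 or P3 replicate 2, 3 or 4 was left out, which left 0 members called. Leaving out P1 replicate 1 gave 2 higher and 4 lower, and leaving out P3 replicate 1 gave 2 higher and 5 lower, among them the mitochondrial synthetases Ears2 and Rars2. Relative to Cars, Cars2 was lower at P3, with a log2 difference of -1.70 (exact permutation p = 0.029, the smallest that 70 splits allow, adjusted p = 0.050) and no overlap. Mitochondrial synthetases had a median of -0.48 and cytosolic ones of 0.19, and the median tested gene 0.09. The median cardiomyocyte marker sum was 8989 RPKM at P1 and 1105 RPKM at P3, and its part in these differences was not tested.

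Other genes of translation were taken from lists of release factors, poly(A)-binding proteins, mitochondrial factors and regulators. Their counts, on deposited values alone, stand beside the 62.7% of all tested genes called lower against each day and the median differences of -1.36 and -1.48. Of the 10 mitochondrial translation factors, 0 were called against P1, while against P3 Gfm2 and Mtrf1 rose by 1.01 and 1.05 and Mtfmt, which makes the initiator formylmethionyl-tRNA, fell by 1.31. Their medians were -0.38 and 0.43. Of 14 tested genes of the integrated stress response, 11 were lower against P1 and 13 against P3, with medians of -2.91 and -2.96. Among them Psat1, an enzyme of serine synthesis, changed by -5.71 and -5.65, Slc7a5, an amino acid transporter, by -4.50 and -5.06, and Slc3a2, its partner, by -3.72 and -4.33. Atf4 itself changed by -3.06 and -3.42. Release and recycling factors were lower in 6 and 5 of 7 cases, with Abce1 at -2.60 and -2.66, and poly(A)-binding proteins and their partners in 3 of 7 cases against each day, with Pabpc1 at -3.66 and -4.22. Cap-binding regulators were lower in 10 and 11 of 12 cases, with medians of -1.34 and -1.501 and Ddx3x at -3.02 and -3.37. Both hypusine enzymes, Dhps and Dohh, were lower against both days, as were 5 of 6 genes of selenocysteine incorporation. Of the scaffold proteins of the multi-synthetase complex, Aimp2 was lower against both days (-2.40 and -1.70) and Aimp1 against P1 (-1.16).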

How the data were processed

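RNA was extracted with TRIzol and made into Illumina libraries, per the labels' protocols. The authors deposited 1 table of RPKM, with 1 column for each of the 15 libraries, all used. HISAT2, Partek 6.6 and the mouse build mm10 are named, per the submitters' processing notes. No source used here gives the annotation, the handling of shared reads or whether counting used strand, and 26 members overlap another protein-coding gene, 23 of them on the opposite strand. The table holds 9666 genes under 9665 names, each above 0.1 RPKM in every library, so genes below that level are not analysed here.

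Values step in whole reads, which were recovered (relative tolerance 2e-05) for 87.6% of genes and 83 of 99 members, against 0.2% of genes once 1% noise was added. The fewest were 7 reads, and 35 members had under 100 reads in some library. RPKM is scaled to all reads, so a large change of abundant genes moves the others.

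The 9389 genes that reached 1 RPKM in 4 or more libraries entered a linear model of log2(RPKM + 0.5) with 1 coefficient a group (limma 3.58.1, R 4.3.3, eBayes with a trend). Tests were two-sided, with Benjamini-Hochberg adjustment over all these genes. The log2 change understates that of low genes. Ratios were compared by two-sided exact permutation tests in scipy 1.17.1. The limma and ratio steps were tested on simulated data. Other scalings were quantile normalization, median-of-ratios, an equal RPKM sum, and that sum without the 100 highest genes. Other pseudocounts and filters, adjusted p alone, a replicate block, the adult sets 1 to 4 and 5 to 7, and leaving out each library were also tried.

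The members, the gene lists, the pairs and the motifs were chosen with earlier results of these data known. Values by library were given, by rule, for the 5 largest rises and 5 largest falls called in each comparison, the member of highest mean level in each role and the pairs whose ratio passed, and other members are examples. Of 28 gene pairs listed, 26 were in the table.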

Additional observations from a re-analysis of the deposited data

Results flagged for a closer look

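In 9 of 81 groups of 4 or 7 libraries, over the genes given by library, the highest or lowest library lay far from the nearest other one by Dixon's criterion at 95%, which chance meets in about 1 group in 20. In adult replicate 4 the highest values were those of Eef1a1 (270.8 RPKM, next 97.9), Eif1 (274.8 RPKM, next 172.5), Eif6 (11.08 RPKM, next 6.12) and Fars2 (22.1 RPKM, next 15.04). That library also had the highest sums of endothelial and fibroblast markers among the adults, and, of all adults, the lowest estimated denominator (6.3, in units of 1000000 reads) and the highest RPKM sum. Eif1a in adult replicate 5 was 3.034 RPKM, next 2.39. At P1, replicate 2 was lowest for Eif2ak4 (3.38 RPKM, next 3.74) and for Eif4a2 (53.95 RPKM, next 76.6). At P3, Eef1a2 in replicate 1 was 89.63 RPKM, next 21.9, beside the highest cardiomyocyte marker sum of that day, and Lars2 in replicate 4 was 318.7 RPKM, next 64.8. Without P3 replicate 1, Eef1a2 was 3.94 higher in adult than at P3. The causes were not tested.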

How the results depend on the processing

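Other scalings moved the counts of members most. Against P1, higher and lower members numbered 12 and 29 by quantile normalization, 12 and 17 by median-of-ratios scaling, 4 and 50 at equal RPKM sums, and 6 and 40 at equal sums without the 100 highest genes, with member medians of -0.39, -0.20, -1.01 and -0.72. In the same order, 1683 and 1669, 1853 and 1552, 863 and 3886, and 1155 and 2934 of all 9389 tested genes were higher and lower. Against P3 higher and lower members numbered 17 and 32, 18 and 23, 7 and 57, and 9 and 41, with medians of -0.53, -0.11, -1.16 and -0.74. All tested genes numbered 2165 and 2376, 2335 and 2133, 1237 and 4698, and 1617 and 3646. All members called lower under these 4 scalings were among those called on deposited values. Of the members called lower, quantile normalization turned the sign of 4 of 74 against P1 and 6 of 71 against P3, and median-of-ratios scaling that of 14 and 18. Among these, with values given by library, were Eif1 (0.48 against P1, 0.59 against P3), Eif3h (0.51 against P1), Eif4g1 (0.040 against P1) and Eif4g2 (0.49 and 0.32). Adjusted p alone gave 2 higher against P1, and adult replicates 5 to 7 a median of -1.44 against P3. Without single libraries, 73 to 76 members were lower against P1 and 68 to 73 against P3, with 1 higher and 4 to 5 higher. In P3 minus P1, lower members numbered 2 after quantile normalization, 2 with a pseudocount of 0.1 and 3 by adjusted p alone, higher ones 0 after median-of-ratios scaling, and without single libraries 0 to 2 were higher and 0 to 5 lower. Replicate numbers gave no clear pairing of the libraries, though so few libraries cannot exclude one. Deviations of same-numbered libraries correlated at -0.02 to 0.28 for adult and P1, -0.42 to 0.01 for adult and P3 and -0.51 to 0.37 for P3 and P1. In these comparisons 3, 0 and 1 of 4 libraries were closest to their own number. With the replicate block 1 member was higher and 77 lower against P1, 5 and 71 against P3, and 0 and 0 in P3 minus P1. Of 78 ratio tests 45 passed, 40 to 46 without single libraries. With adult replicates 1 to 4 or 5 to 7 alone 0 passed, and 0 of the 45 changed sign. For replicates 1 to 4, 4 against 4 libraries allow no p under 0.029. For replicates 5 to 7, 3 against 4 libraries allow no p under 0.05, so no test with adult could pass. For genes given by library, the calls made on deposited values otherwise changed only by being lost, and calls gained under an alternative are in the counts above. Fewer than 10 reads limited 1 member, Eif2ak4.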
